A study of Mus musculus with 2 samples.

Results

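Among the eYFP+ cells of the Isl1-Cre lineage at E13.5, 323 endothelial cells carried UMIs of at least 3 of 6 genes used as endocardial markers (Npr3, Nfatc1, Hapln1, Gata4, Cgnl1 and Tll1) and none of Prox1. These 3-marker cells were 27 of 153 endothelial cells in the control library and 296 of 739 in the mutant library, out of 2783 and 3489 cells that passed the limits on genes and mitochondrial UMIs. The control embryos were Isl1-Cre;R26R-eYFP and the mutant embryos Isl1-Cre;R26R-eYFP;Pik3caH1047R, which adds an activating form of the catalytic subunit of PI3K in the same Cre lineage. Each genotype is 1 library made from 3 pooled embryos, so embryo-to-embryo spread could not be measured and no test between genotypes was possible. Isl1-Cre labels second heart field and pharyngeal mesoderm along with other Isl1 descendants, both groups carry the Cre and the reporter, and the tissue taken was the body above the liver, which the labels call pharyngeal arch. Levels are in CPM, the UMIs of a gene per 1000000 UMIs of the same cells. The 95% intervals cover only the error of counting, by the exact Poisson method for a level, the Clopper-Pearson method for a share of cells, and an exact binomial conditional on the summed UMIs for a ratio. Where no cell had a UMI, the limit given is instead 3 counts of the number of cells, and it limits cells with a UMI, not cells expressing the gene.

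The endocardium is the endothelial lining of the heart chambers. It shares pan-endothelial genes with vessels, but in addition uses heart transcription factors such as Gata4, Gata5, Tbx20 and Hand2 and the calcineurin-dependent factor Nfatc1. At the atrioventricular canal and outflow tract it gives rise to cushion mesenchyme, which lays down versican, hyaluronan and collagens on the way to becoming valves. Endocardial cells that line the valves can also contain Prox1, a transcription factor better known from lymphatic endothelium.

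The cells were chosen by detection of these 6 genes, so their levels are given as a description. Npr3 is the natriuretic peptide clearance receptor, Hapln1 links hyaluronan to proteoglycans, Gata4 is a cardiac zinc finger factor, Cgnl1 is a junction protein related to cingulin and Tll1 is a tolloid-type metalloprotease. In the control 3-marker cells, Nfatc1 had a UMI in 26 of 27 cells, Cgnl1 in 25, Hapln1 in 17, Npr3 in 12 and Tll1 in 9. Gata4 was in 0 of 27 cells, which allows a share of up to 11.1%. In the mutant 3-marker cells, Cgnl1 was in 91.6% of 296 cells, Hapln1 in 78.0%, Tll1 in 72.0%, Nfatc1 in 66.9%, Npr3 in 32.8% and Gata4 in 26.7%. The libraries thus reached the same threshold by different genes: the most frequent control set was Npr3, Nfatc1 and Cgnl1 (8 cells), and the most frequent mutant set Hapln1, Cgnl1 and Tll1 (54 cells).

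The limit of 3 markers ran through a continuous range. Of the Prox1-0 endothelial cells, 35 control and 128 mutant cells had exactly 2 markers, and 20 and 141 had exactly 3. Gata4 was at 9.82 CPM in mutant cells with exactly 3 markers and 2.61 CPM in those with exactly 2, and Hapln1 was at 164 and 74.7 CPM. In the control library, Hapln1 was at 138 and 63.1 CPM across the same line, whereas Cgnl1 was at 115 and 120.3 CPM. Deeper cells passed more often: the median was 13136 UMIs per mutant cell with 2 markers and 16284 with 3, and 20203 and 27781 in the control library.

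**Figure D1:**
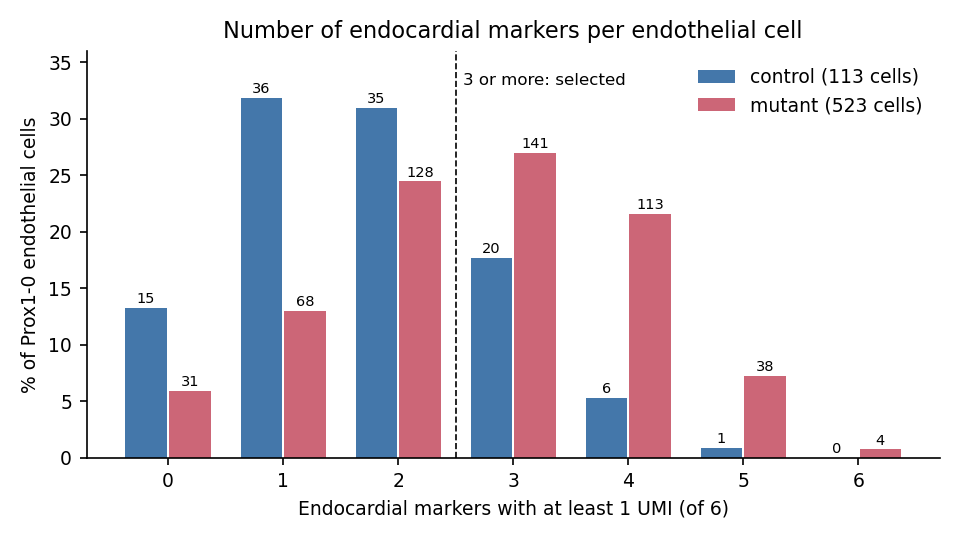
Share of Prox1-0 endothelial cells (y axis, %) by the number of the 6 endocardial markers with at least 1 UMI (x axis), for 113 control and 523 mutant cells, with cell numbers above the bars. Cells to the right of the dashed line were selected; 27 control and 296 mutant cells lie there, with the control bars highest at 1 marker and the mutant bars highest at 3.

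The 3-marker cells made up 17.6% (95% interval 11.96 to 24.6%) of control and 40.1% (95% interval 36.5 to 43.7%) of mutant endothelial cells, although the median depth of the control cells was higher (20373 against 17438 UMIs per endothelial cell). When the rule was applied to cells thinned to 5000 UMIs, the shares were 3.62% and 22.9%, with 5 control and 149 mutant cells selected. Of these 5 control cells, 1 had a Gata4 UMI. All control endothelial cells with Gata4 carried Prox1 at full depth, so the 5 cells were not all among the 27. Thinning can remove the Prox1 UMIs of a cell, and the condition on Prox1 thus depends on depth. The marker Tll1 also differed between the libraries outside the 3-marker cells. Among the other endothelial cells, 17 of 126 control and 209 of 443 mutant cells had a Tll1 UMI, at 22.3 and 279 CPM. Nfatc1 went the other way, with a UMI in 58 and 149 of these cells, and Gata4 lay close, in 8 and 27. The shares were not recomputed without Tll1, so its part in their difference was not tested. Outside the endothelial cells, 128 of 2630 control and 111 of 2750 mutant cells also had 3 or more of the 6 markers, which is 4.87% and 4.04%. Neuron-type cells were taken as a guide to background, though whether marker UMIs there were background or expression was not tested. A Cgnl1 UMI was found in 9.06% of 254 control and 6.09% of 443 mutant neuron-type cells at median depths of 19210.5 and 14745 UMIs. Npr3 was found there in 11.8% and 4.97%, Nfatc1 in 8.66% and 4.74% and Hapln1 in 3.54% and 2.26%. Tll1 was found there in 2.76% and 5.64% and Gata4 in 0.394% and 2.03%. The 3-marker cells were selected on these genes, so their higher shares follow from the rule.

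The endocardial label held for only some of these cells, and for none of the control cells by Gata4. All 8 control endothelial cells with a Gata4 UMI also carried Prox1, and were therefore left out by the rule. They were 8 of the 20 control cells that had 3 or more markers together with Prox1. In the mutant library, 79 of 106 Gata4-containing endothelial cells were among the 3-marker cells, 23 had 3 or more markers with Prox1, and 4 had fewer than 3 markers. The 8 control cells held Npr3 at 601 CPM, Nfatc1 at 437 CPM, Tbx20 at 60.5 CPM, Cdh11 at 679 CPM and Fn1 at 2244 CPM. The 27 control 3-marker cells held 61.0, 65.1, 0, 44.8 and 269.9 CPM of the same genes. The 8 cells were few and uneven, since 1 of them gave 78.2% of the Nfatc1 UMIs, and 7 of the 8 held 3 or more genes of another cell type. Of the lymphatic genes they held Lyve1 at 8.65 CPM, Flt4 at 21.6 CPM and Mmrn1 at 4.32 CPM, against 19.8, 277 and 363 CPM in control Prox1-containing cells with fewer than 3 markers. All 9 lymphatic genes summed to 584 CPM in the 8 cells, so these 3 genes gave a small part of it. The sum was 298 CPM in the 27 control 3-marker cells and 274 CPM in control cells with Prox1 at 0 and fewer than 3 markers. It was 1439 CPM in control cells with Prox1 and fewer than 3 markers. The cells selected by the rule are therefore named here by it, as 3-marker cells.

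Endocardial genes that the rule did not use were mostly low in the control cells. Of 14 such genes, only Edn1, an endothelial peptide that acts on neighbouring cells, reached a mean of 50 CPM in the control comparison of 3-marker with other endothelial cells. It was at 129 CPM in the control 3-marker cells and 40.1 CPM in the other control endothelial cells, a log2 ratio of 1.68 (1.27 to 2.10). All 14 genes summed to 411 CPM in control 3-marker and 225 CPM in other control cells, and to 650 and 443 CPM in the mutant library. Tbx20, a T-box factor of the heart, had 0 UMIs in the 27 control cells and was at 59.8 CPM in mutant 3-marker and 14.1 CPM in other mutant endothelial cells. Gata5 was at 10.9, 3.34, 6.20 and 3.02 CPM in control 3-marker, other control, mutant 3-marker and other mutant cells. In the mutant library 4 of the 14 genes were measured, with a median log2 ratio of 0.44 and 1 gene beyond 1.5-fold, where 1.16% of all genes were higher and 0.619% lower. With the other cells restricted to those with Prox1 at 0, that median was 1.04, and with Gata4-containing cells left out of the 3-marker cells it was 0.16.

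The libraries differed in other ways that bear on every comparison between them. The 27 control cells held 737245 UMIs (median 26400 per cell, 5884 genes) and the 296 mutant cells 6292101 (median 18983, 5070.5 genes). By Xist and 4 Y-linked genes, 25 control cells were female-like and none male-like, while 111 mutant cells were female-like, 155 male-like and 30 unassigned. A single control cell held 199 of 199 Myog UMIs and 90.5% of the skeletal muscle marker UMIs of the control 3-marker cells, with 7.76% of their total UMIs. The libraries shared 28 barcodes over all deposited cells and 0 among the 3-marker cells. Scrublet gave high scores to 2 control and 15 mutant 3-marker cells.

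Compared with the other endothelial cells of the same library, the summed 3-marker cells held more UMIs of some arterial genes, chiefly in the control library. Of 13 arterial genes measured in the control library, 8 were more than 1.5-fold higher and 1 lower in 3-marker cells (median log2 ratio 0.64), where 3.4% of all 4090 genes were higher and 2.71% lower. In the mutant library, 3 of 8 were higher and none lower (median 0.28), where 1.16% of 3880 genes were higher and 0.619% lower. Per cell, the arterial genes had a median of 15.5 UMIs per 10000 in control 3-marker and 11.01 in other control cells, and of 15.0 and 15.0 in the mutant library. The control median log2 ratio turned to -0.18 when cells with Prox1 were included and to -1.25 with 4 markers (7 control cells). The median over all genes was 0.04 and 0.01.

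Eln, the elastin precursor, was at 719 CPM (95% interval 659 to 783) in control 3-marker cells and 351 CPM in other control cells. In the mutant library it was at 186 and 59.2 CPM, a log2 ratio of 1.66. Fbln5, which assembles elastic fibres, was at 266 and 122 CPM in the control library and at 127 and 40.7 CPM in the mutant library. Few cells carried these genes. A single control cell gave 67.7% of the Eln UMIs, the control log2 ratio of Eln turned from 1.04 to -0.54 with a mitochondrial limit of 5%, and Fbln5 was found in 8 of 27 and 36 of 296 cells. Gja4, an arterial connexin, was at 315 and 181 CPM in the control library and 132 and 54.4 CPM in the mutant library. Jag1, a Notch ligand, was at 144 and 45.6 CPM, then 77.1 and 47.9 CPM. Bmp4 (61.0 against 18.6 CPM in the control and 89.0 against 55.2 CPM in the mutant library) and the BMP-pathway inhibitor Smad6 (65.1 against 39.0 and 73.4 against 46.2 CPM) were also higher in both. The rest of the 12 highest genes were Sox6, Ltbp4, Car8, Stmn2, Slc35f1 and Cthrc1, with the smaller log2 ratio of both libraries between 0.67 and 1.06. In the control library, 10 of these 12 genes were lower in the 7 cells with at least 4 markers than in the others.

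The 12 genes lowest in 3-marker cells of both libraries were Ctnna2, Dlk1, Nkain2, Ptp4a3, Mt1, Unc5b, Trf, Ank2, Selenop, Nnat, Ebf3 and Prkce. Ptp4a3, a phosphatase, was at 90.9 CPM in control 3-marker and 231 CPM in other control cells, and at 28.4 and 53.3 CPM in the mutant library. Unc5b, a netrin receptor of arterial and tip cells, was at 76.0 and 127 CPM in the control and 28.0 and 50.9 CPM in the mutant library. For the neural genes Ctnna2, Nkain2 and Nnat, 1 control cell outside the 3-marker cells gave 69.1, 56.0 and 74.7% of the UMIs. The condition on Prox1 selects against lymphatic cells. Of 3 lymphatic genes measured, 2 were more than 1.5-fold lower in 3-marker cells of the control and 0 in those of the mutant library, where 2.71 and 0.619% of all genes were lower. Flt4, the VEGF-C receptor, was at 46.1 and 134 CPM in the control and 63.4 and 89.8 CPM in the mutant library, and the 9 lymphatic genes summed to 298 and 775 CPM, then 324 and 491 CPM.

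Cushion matrix genes were mostly higher in 3-marker cells of the mutant library, and mostly not in those of the control library. In the mutant library 5 of 6 measured genes were more than 1.5-fold higher in 3-marker than in other endothelial cells and none lower (median log2 ratio 1.23), where 1.16% of all genes were higher and 0.619% lower. All 14 genes of the list, with those under the limit on level, summed to 1833 and 948 CPM. With the 79 cells that held a Gata4 UMI left out the median was 0.28. In the control library 1 of 7 was higher and 3 lower (median -0.50), where 3.4% of all genes were higher and 2.71% lower. With the rule on thinned cells, the control median was 3.08, but that rule selected 5 control cells, 1 of them with a Gata4 UMI. Vcan, which encodes versican, was at 188 CPM (95% interval 178 to 199) in mutant 3-marker cells and 55.8 CPM in other mutant cells, and at 21.7 and 43.4 CPM in the control library. Col3a1 was at 157 and 67.2 CPM in the mutant and at 52.9 and 134 CPM in the control library. Fn1, fibronectin, was at 896 and 561 CPM in the mutant and 269.9 and 382 CPM in the control library. The 8 Gata4-containing control cells counted among the others, and the 14 cushion genes summed to 5081 CPM in them against 1051 CPM in the remaining 118.

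**Figure D2:**
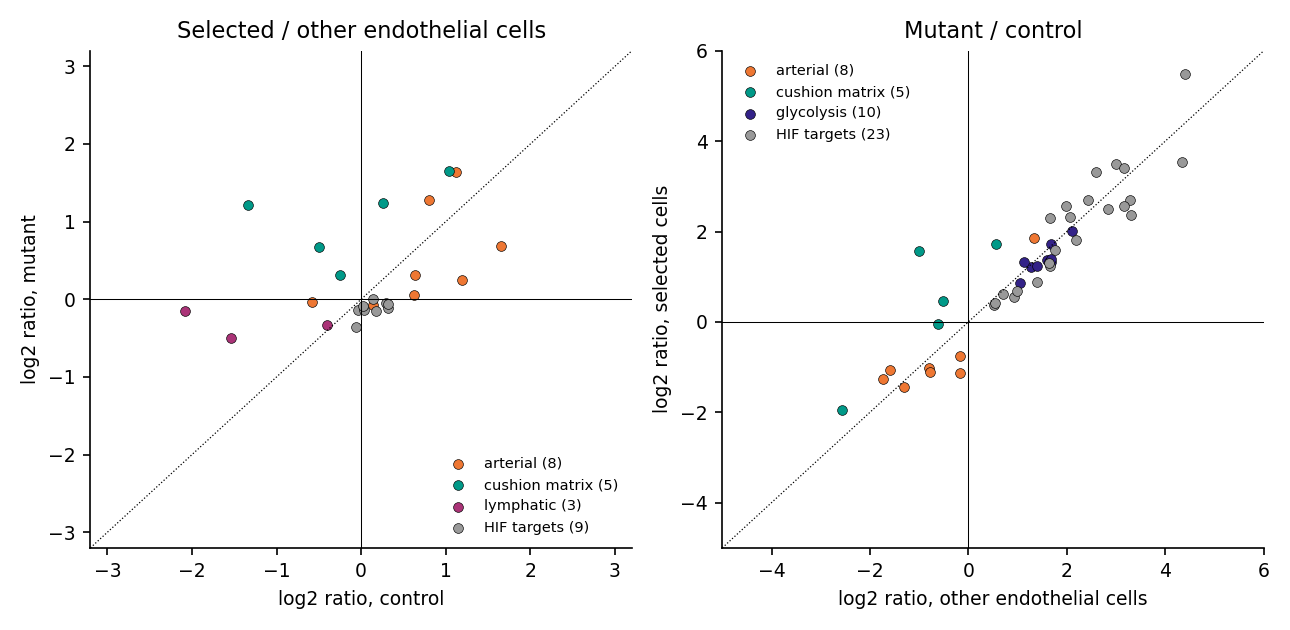
Log2 ratios of listed genes with a mean of at least 50 CPM in both comparisons of a panel, 1 point per gene. Left, 3-marker (selected) over other endothelial cells, with the control library on x and the mutant library on y, where the 5 cushion matrix genes lie above the dotted line of equality. Right, mutant over control, with other endothelial cells on x and 3-marker cells on y, where the 23 HIF targets and 10 glycolytic enzymes lie in the upper right and arterial genes other than Igfbp3 in the lower left.

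The 296 mutant 3-marker cells differed among themselves when split by single markers. The splits and the genes named in them were chosen after their values were seen, and are descriptions without a test. The 79 cells with a Gata4 UMI had a median of 18838 UMIs and the 217 without 19002, close in depth. Levels of cardiac and cushion genes were higher in the Gata4 cells, which did not hold these genes alone. Tbx20 was at 198 CPM with Gata4 and 10.98 CPM without, Hand2 at 108 and 9.90 CPM, and Gata5 at 22.5 and 0.43 CPM. Gata6, a related factor, was at 144 and 71.0 CPM. The matrix gene Postn was at 221 and 7.53 CPM, Vcan at 565 and 54.7 CPM and Cdh11, a cadherin of cushion mesenchyme, at 139.8 and 9.68 CPM. Sox9, a factor of valve and cartilage precursors, was at 78.4 and 3.44 CPM. All 14 cushion genes summed to 3397 CPM with Gata4 and 1279 CPM without.

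Of 16 pan-endothelial genes outside the rule measured in this split, 5 were more than 1.5-fold lower with Gata4 and 0 higher (median log2 ratio -0.33), against 5.35% of all genes lower. Cldn5, the endothelial tight junction claudin, was at 91.8 CPM with Gata4 and 312 CPM without. Of the rule's endothelial genes, Emcn was at 554 and 1271 CPM and Cdh5 at 445 and 686 CPM. Cardiomyocyte transcripts moved with Gata4: Myl2 was at 84.5 and 6.03 CPM, Tnnt2 at 133 and 13.8 CPM, against 364 and 474 CPM in non-endothelial mutant cells. Of the 79 Gata4 cells, 47 held 3 or more genes of another cell type. In the other 32, Tbx20 was at 233 CPM, Hand2 at 84.5 CPM and Vcan at 537 CPM, while Myl2 was at 3.45 CPM. In the corresponding 150 cells without Gata4, those values were 5.36, 5.69, 17.7 and 2.68 CPM.

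For the cushion genes the split by Tll1 ran the opposite way. The 213 mutant 3-marker cells with a Tll1 UMI were compared with the 83 without. All 18 venous and capillary genes summed to 1669 CPM with Tll1 and 784 CPM without. Nr2f2, the venous orphan receptor COUP-TFII, was at 413 CPM with Tll1 and 105 CPM without. Aplnr, the apelin receptor, was at 227 and 58.1 CPM, Nrp2, a co-receptor for VEGF-C, at 319 and 69.5 CPM and Kirrel3, an adhesion molecule, at 177 and 8.85 CPM. The 14 cushion genes summed to 1031 CPM with Tll1 and 4218 CPM without, with Eln at 36.9 and 631 CPM and Vcan at 45.4 and 613 CPM. Gata4 and Tll1 were both found in 31 cells, 48 cells had Gata4 without Tll1 and 182 had Tll1 without Gata4, but a rule that asks for 3 of 6 itself ties the markers to each other.

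Cells with Npr3 had more transcripts of arterial genes. Of 9 arterial genes measured, 8 were more than 1.5-fold higher in the 97 cells with Npr3 than in the 199 without, against 3.32% of all genes. Gja5, an arterial connexin, was at 92.1 CPM with Npr3 and 9.34 CPM without, Gja4 at 304 and 44.3 CPM and Fbln5 at 306 and 36.2 CPM. Fn1 was at 1753 and 461 CPM and the cell cycle inhibitor Cdkn1c at 1127 and 378 CPM. The venous receptor Aplnr was lower with Npr3, at 85.9 and 235 CPM. The 97 and 199 cells had median depths of 19943 and 18737 UMIs.

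**Figure D3:**
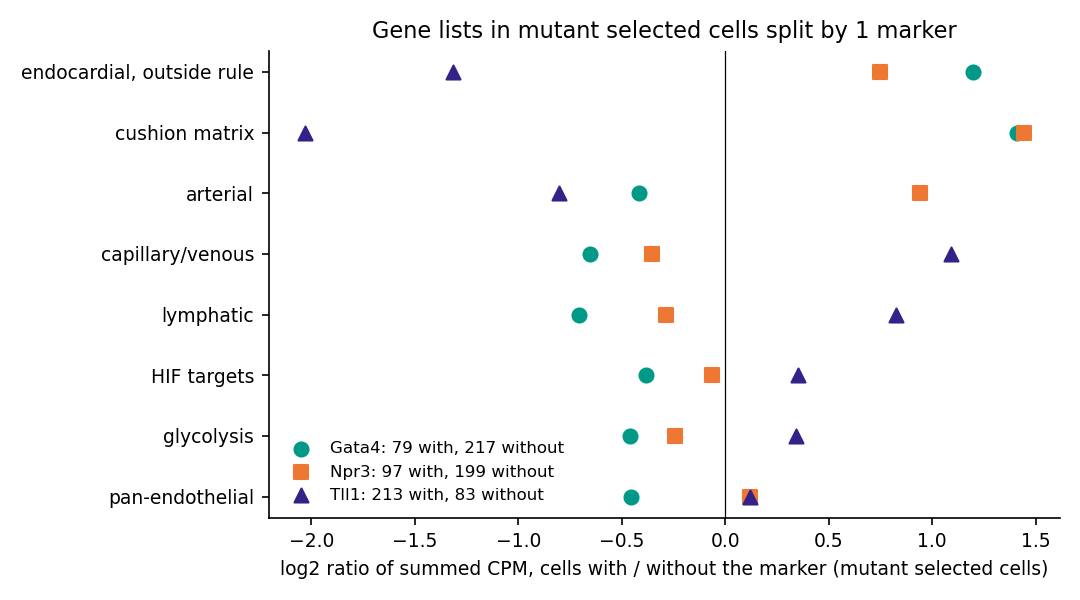
Log2 ratio of the summed CPM of 8 gene lists (x axis) in mutant 3-marker cells with a UMI of 1 marker over those without it, for Gata4, Npr3 and Tll1. Gata4 and Npr3 lie to the right for the endocardial and cushion lists and Tll1 to the left, whereas Tll1 alone lies to the right for capillary/venous genes.

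Per cell, the cushion matrix level spread over a wide range. In the mutant 3-marker cells the 14 cushion genes ran from 0 to 356 UMIs per 10000 with a median of 5.38, and in the 27 control cells from 0.581 to 446 with a median of 3.14. The 18 capillary and venous genes had medians of 14.7 and 15.4 UMIs per 10000. With limits set after the values were seen, 31 mutant cells had fewer than 5 capillary and venous and at least 20 cushion UMIs per 10000, and 27 of these had Gata4. Among control cells the number was 0 of 27, which allows a share of up to 11.1%. The highest control cushion level came from the cell that held most of the Eln UMIs.

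**Figure D4:**
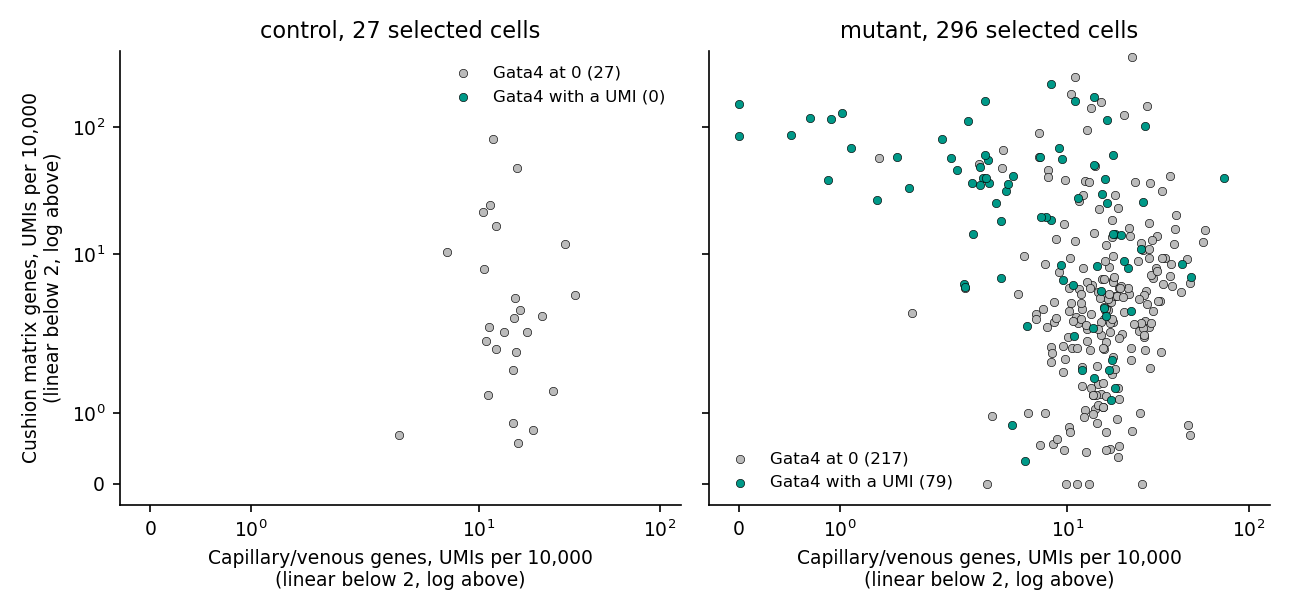
Each point is 1 3-marker cell, placed by its summed UMIs of 18 capillary and venous genes (x axis) and 14 cushion matrix genes (y axis), both per 10000 UMIs of the cell on axes linear below 2 and logarithmic above. Teal points have a Gata4 UMI (0 of 27 control and 79 of 296 mutant cells); 31 mutant and 0 control cells lie under 5 on x and at or above 20 on y.

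Other cell types were looked for with lists of their own markers. Macrophage genes summed to 19.0 CPM in control and 26.1 CPM in mutant 3-marker cells, epithelial genes to 9.49 and 29.7 CPM and erythroid genes to 9.49 and 41.3 CPM. Cardiomyocyte genes summed to 830.1 CPM, of which Actc1 gave 491 CPM, and 361 CPM, with 7 of the 15 genes at 0 in the control cells, Myl2, Myl3 and Nkx2-5 among them. Without the muscle-rich control cell the control sum was 115 CPM, below the mutant sum. Neuronal genes summed to 163 CPM in control and 423 CPM in mutant 3-marker cells, with Nefl at 0 in the control cells and Gap43, the most abundant, at 77.3 and 239 CPM. In the other endothelial cells they summed to 295 and 410.1 CPM. Mesenchyme genes summed to 221 and 353 CPM in 3-marker cells, led by Dlk1 in the control (88.2 CPM) and Col3a1 in the mutant library, mural genes to 156 and 193 CPM and mesothelial genes to 1.36 and 40.5 CPM. Skeletal muscle genes summed to 502 and 35.3 CPM. The liver genes Afp and Alb were at 13.03 and 3.02 CPM in mutant 3-marker cells and at 663 and 465 CPM in the other mutant endothelial cells, and had 0 UMIs in the control 3-marker cells. The part of these transcripts in the results was not tested, except where values without the cells concerned are given.

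Genes that HIF transcription factors induce were higher in mutant than in control 3-marker cells. HIF-1α is degraded when oxygen is present and, when it persists, drives genes for glucose uptake, glycolysis, mitophagy and vessel growth. Of 38 HIF targets listed, 23 were measured in 3-marker cells, and 20 of them were more than 1.5-fold higher in the mutant and none lower (median log2 ratio 2.32). Of all 4061 genes measured, 8.35% were higher and 11% lower, with a median of -0.06. In the other endothelial cells, 23 of 25 HIF targets were higher (median 2.05), where 6.56% of 4011 genes were higher and 8.43% lower. The limit on level was set on the mean of both libraries, so targets low in the control could pass by their mutant level alone. In the comparison of 3-marker with other cells, 9 of the 38 passed it within the control library and 27 within the mutant library. The counts of higher HIF targets are therefore descriptions.

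Adm, the vasodilator peptide adrenomedullin, had 3 UMIs in the 27 control cells, which is 4.07 CPM (95% interval 0.839 to 11.9), and was at 182 CPM (95% interval 172 to 193) in the mutant 3-marker cells, a log2 ratio of 5.48 (3.93 to 7.76). With so few control UMIs the Adm ratio was unsteady: it was 2.97 with 4 markers, 3.03 on counts thinned to 5000 UMIs per cell and 1.72 with the rule on thinned cells (5 control cells). Bnip3, a mitophagy receptor, was at 19.0 and 221 CPM, a log2 ratio of 3.54 (2.79 to 4.42). Ankrd37 was at 14.9 and 169 CPM and Egln3, a HIF prolyl hydroxylase, at 19.0 and 201 CPM. These 4 genes were found in 3 to 9 of 27 control and in 163 to 210 of 296 mutant 3-marker cells. Vegfa, the ligand of Kdr and Flt1, was at 24.4 CPM in control and 126 CPM in mutant 3-marker cells, a log2 ratio of 2.36 (1.69 to 3.12), and at 15.2 and 149.7 CPM in the other endothelial cells, a log2 ratio of 3.30 (2.85 to 3.78). Mif, a cytokine and the most abundant gene of the list, was at 689 and 1691 CPM. Wsb1, Plod1 and Ccng2 stayed within 1.5-fold, with log2 ratios of 0.42, 0.38 and 0.56.

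HIF binds the letters ACGTG or GCGTG. The promoters of the 3 HIF targets with the highest mutant-over-control ratio in 3-marker cells are shown for these letters, from RefSeq, 5′ to 3′ on the gene's strand, with each match on either strand in capitals (CACGT and CACGC are the matches on the opposite strand, and neighbouring matches can overlap). Adm held 2 matches, Bnip3 5 and Ankrd37 4. Of all 27025 promoters of this length, 43.8% held at least 1 match, and of the 17 measured HIF targets with a promoter in the table, 16 did. Of the 29 promoters of the whole list, measured or not, 23 did (79.3%). A match is a stretch of letters and was not tested as a binding site.
Adm (GRCm38.p6, chr7:110627407-110627706, + strand): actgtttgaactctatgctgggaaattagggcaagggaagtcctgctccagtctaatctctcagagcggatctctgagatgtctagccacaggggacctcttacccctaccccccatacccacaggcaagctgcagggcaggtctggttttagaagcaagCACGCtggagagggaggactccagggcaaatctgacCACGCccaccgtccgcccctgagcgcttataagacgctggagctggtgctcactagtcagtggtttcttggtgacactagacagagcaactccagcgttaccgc
Bnip3 (GRCm38.p6, chr7:138909457-138909756, - strand): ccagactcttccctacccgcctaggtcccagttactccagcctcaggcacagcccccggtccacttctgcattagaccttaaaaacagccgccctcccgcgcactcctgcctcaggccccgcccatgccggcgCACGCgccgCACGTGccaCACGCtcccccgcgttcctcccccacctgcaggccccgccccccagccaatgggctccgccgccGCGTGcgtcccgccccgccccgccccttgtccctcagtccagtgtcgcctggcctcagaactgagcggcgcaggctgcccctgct
Ankrd37 (GRCm38.p6, chr8:45999801-46000100, - strand): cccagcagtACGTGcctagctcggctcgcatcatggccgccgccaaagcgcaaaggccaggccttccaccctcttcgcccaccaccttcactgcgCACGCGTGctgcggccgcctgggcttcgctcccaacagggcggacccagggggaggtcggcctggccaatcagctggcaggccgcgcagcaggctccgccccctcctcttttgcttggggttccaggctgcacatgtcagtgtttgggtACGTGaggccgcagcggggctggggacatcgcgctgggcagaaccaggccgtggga

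Genes of glucose transport and glycolysis were higher in the mutant. All 10 glycolytic enzymes measured in 3-marker cells were more than 1.5-fold higher in the mutant (median log2 ratio 1.33), beside 8.35% of all genes, and 10 of 11 in the other endothelial cells (median 1.61), beside 6.56%. Pgk1, which makes the first ATP of the pathway, was at 227 CPM in control and 912 CPM in mutant 3-marker cells, the largest ratio of the list, and Gpi1 at 283 and 516 CPM the smallest. Ldha, which turns pyruvate into lactate, was at 724 and 1818 CPM, a log2 ratio of 1.33 (1.20 to 1.46). The glucose transporter Slc2a1 was at 84.1 CPM (95% interval 64.5 to 108) in control and 698 CPM (95% interval 678 to 719) in mutant 3-marker cells. Its log2 ratio was 3.05 (2.69 to 3.44) there and 2.06 (1.92 to 2.21) in the other endothelial cells. Slc2a3, a high-affinity glucose transporter, was at 4.07 and 148 CPM, a log2 ratio of 5.18 (3.63 to 7.46) that rests on 3 control UMIs and was 3.89 with 4 markers and 1.42 with the rule on thinned cells. Slc16a3, which exports lactate, was at 10.9 and 225 CPM.

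Cells varied widely within the mutant library. The summed HIF targets had a median of 17.8 UMIs per 10000 in control 3-marker cells (8.15 to 43.0) and 45.8 in mutant ones (5.37 to 277), so the ranges overlapped. Female-like mutant cells had a median of 40.0 and male-like cells 54.6. Between female-like cells of both genotypes, 17 of 23 HIF targets were beyond 1.5-fold higher in the mutant (median log2 ratio 1.78), beside 326 of all 4016 genes. Between male-like and female-like cells within the mutant library 10 of 27 were higher in male-like cells (median 0.35), beside 106 of all 3877 genes. The sexes may come from different embryos of the pool, and sex and embryo cannot be told apart here. Within the mutant 3-marker cells, Gata4 cells had lower HIF target sums than cells without Gata4 (5234 against 6826 CPM), and Slc2a1 was at 296 and 841 CPM. HIF target sums were also lower in cells with Hapln1 (5945 against 8384 CPM) and with Nfatc1 (5751 against 8053 CPM), higher with Tll1 (6781 against 5307 CPM), and close for Npr3 (6224 against 6504 CPM). Each of these sums stood above the control value of 2099.7 CPM. With Gata4 cells left out, 21 of 23 HIF targets were higher (median 2.38), beside 356 of all 4045 genes.

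**Figure D5:**
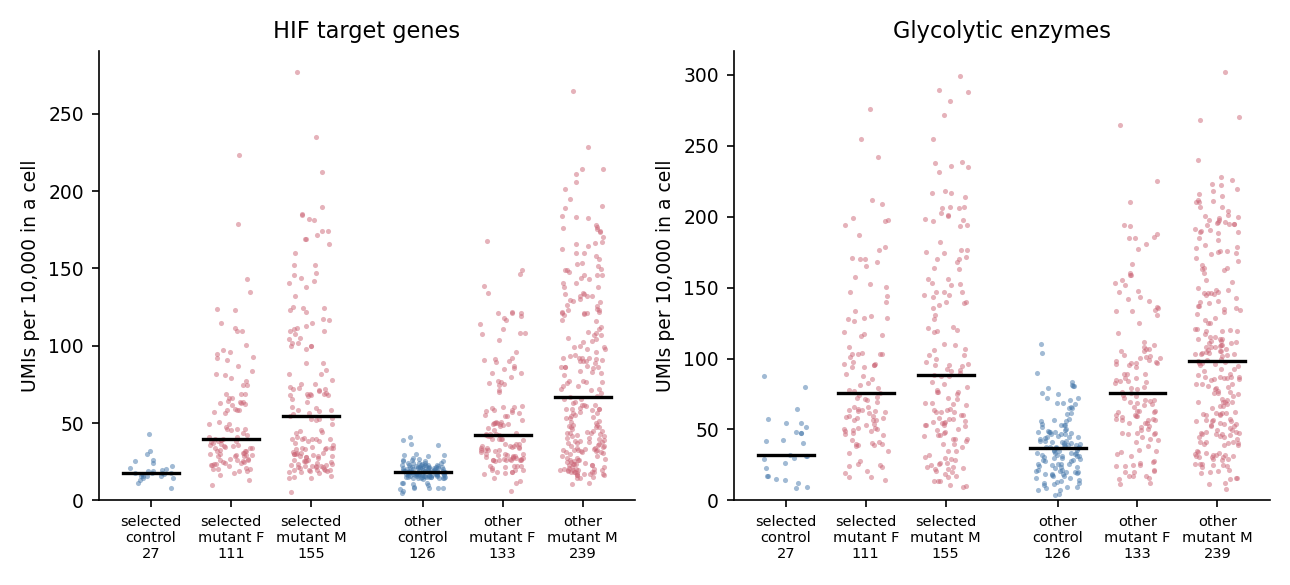
Summed UMIs of 38 HIF targets (left) and 16 glycolytic enzymes (right) per 10000 UMIs of a cell (y axis), 1 point per cell with the median as a bar, for selected (3-marker) and other endothelial cells of the control library and of female-like (F) and male-like (M) cells of the mutant library. Cell numbers stand under each group, mutant cells of unassigned sex are left out, and the control HIF medians (17.8 and 18.6) lie under the mutant ones, with overlapping ranges.

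Several heat shock genes and genes of endoplasmic reticulum stress were also higher. Of 11 heat shock genes measured in 3-marker cells, 6 were more than 1.5-fold higher in the mutant and none lower (median log2 ratio 0.81), where 8.35% of all genes were higher and 11% lower. The inducible chaperones Hspa1a and Hspa1b were at 36.6 and 28.5 CPM in control and 445 and 413 CPM in mutant 3-marker cells. Both lay under the limit on level in the control cells and passed it by their mutant level. In the comparison of 3-marker with other cells, 8 of the 12 listed heat shock genes passed it within the control library and 12 within the mutant library. The count of higher heat shock genes is therefore a description. Genotype and cell preparation cannot be told apart here, with 1 preparation each. Hsp90b1 and Hspa5, chaperones of the endoplasmic reticulum, were at 815 and 563 CPM in control and 2091 and 1274 CPM in mutant cells, and 4 of 6 measured genes of a list of ATF4 targets and endoplasmic reticulum stress genes were higher, Atf4 and Sdf2l1 besides these. Immediate early genes had a median log2 ratio of 0.17, with 2 of 12 higher and 1 lower, beside 8.35 and 11% of all genes.

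Summed over cells, most arterial genes were lower in mutant 3-marker cells. Of 11 measured, 10 were more than 1.5-fold lower and 1 higher (median log2 ratio -1.11), where 11% of all genes were lower and 8.35% higher, and in the other endothelial cells 6 of 9 were lower and 1 higher (median -0.81), where 8.43% of all genes were lower and 6.56% higher. Per cell the medians lay close, at 15.5 UMIs per 10000 in control and 15.0 in mutant 3-marker cells, while the upper quartiles were 38.1 and 25.9, and in the other endothelial cells the medians were 11.01 and 15.0. With 4 markers needed, which left 7 control cells, the direction of the median turned (0.77). Cxcl12, a chemokine, was at 296 CPM (95% interval 258 to 338) in control and 16.2 CPM (95% interval 13.2 to 19.7) in mutant 3-marker cells, a log2 ratio of -4.19 (-4.54 to -3.84), but 7 of 27 control cells carried it and 1 gave 49.1% of its UMIs. More evenly spread genes went the same way. Nrp1, the VEGF-A co-receptor, was found in all 27 control cells, at 541 CPM against 250.2 CPM in the mutant, a log2 ratio of -1.11 (-1.27 to -0.95), and Mecom, a zinc finger factor, was at 619 and 284 CPM, also in all 27 control cells. Sox17 was at 183 and 109 CPM and Efnb2, the arterial ephrin, at 191 and 93.8 CPM. Igfbp3 was the exception, at 221 and 806 CPM. With the muscle-rich control cell left out, 10 of 11 were lower, beside 502 of all 4069 genes.

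Of the 12 genes lowest in mutant against control 3-marker cells, Myog, Ttn and Actc1 had 100, 97.1 and 92.0% of their control UMIs in the single muscle-rich cell. The remaining 9 were Cxcl12, Dach1, Ly6e, C130074G19Rik, Col15a1, Pdgfd, Rgcc, Nckap5 and Meox2. Dach1, a factor linked to coronary artery growth, was at 586 CPM in control and 78.5 CPM in mutant 3-marker cells and was found in 23 of 27 and 150 of 296 cells. Its log2 ratio was -2.90 (-3.09 to -2.71), and in the other endothelial cells -2.16 (-2.30 to -2.01). Col15a1, a basement membrane collagen of capillaries, was at 304 and 50.2 CPM, and Rgcc at 138 and 23.2 CPM. With the rule on thinned cells, which selected 5 control cells, the log2 ratio of Col15a1 turned from -2.60 to 1.56. Meox2, a homeobox factor that restrains endothelial growth, was at 130.2 and 22.4 CPM. Of 11 basement membrane genes, 3 were lower beside 11% of all genes, Col15a1, Lama4 (351 and 145 CPM) and Nid2 (103 and 38.1 CPM), while Col4a1 was at 1523 and 1380.1 CPM.

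The 12 highest genes held 3 that were not HIF targets, transporters or heat shock genes. Kirrel3 was at 4.07 CPM in control and 134 CPM in mutant 3-marker cells, with 3 control UMIs in 2 cells, and its log2 ratio was 5.05 (3.49 to 7.33) against 1.59 (1.27 to 1.92) in the other endothelial cells. The ratio in the selected cells was unsteady: it was 1.44 regardless of Prox1, 1.86 with the rule on thinned cells and 2.06 with 4 markers. Without cells holding genes of another type it was 6.19. No ratio of the other endothelial cells under these rules is given, so the contrast between the groups cannot be relied on. Kcne3, a potassium channel subunit of tip cells, was at 9.49 and 155 CPM, and Pdlim3, an actinin-binding protein, at 12.2 and 153 CPM. Among the rule's own genes, Tll1 was at 54.3 CPM in control and 332 CPM in mutant 3-marker cells and at 22.3 and 279 CPM in the others, given here as a description.

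Cushion matrix and pan-endothelial genes gave no single direction. Of 6 cushion genes measured in 3-marker cells, 3 were more than 1.5-fold higher in the mutant beside 8.35% of all genes, with log2 ratios of 3.12 for Vcan, 1.73 for Fn1 and 1.57 for Col3a1. Eln was lower, at -1.95 (-2.10 to -1.80). The median was 1.02. With Gata4 cells left out it was -0.13, and with 3-marker cells taken regardless of Prox1, which returns the 8 Gata4 cells to the control side, it was -0.61. Of 17 pan-endothelial genes, 1 was higher and 4 lower (median -0.07), beside 8.35 and 11% of all genes. Flt1, a VEGF receptor, was at 480.2 and 846 CPM, Kdr at 559 and 532 CPM, and Robo4, which stabilises vessels, at 90.9 and 28.8 CPM.

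Signalling lists held genes in both directions, to be read beside the 8.35% of all genes higher and 11% lower. Of 8 measured genes of the PI3K pathway itself, none was more than 1.5-fold higher and 2 were lower, the receptors Igf1r (189 and 109 CPM) and Insr (82.7 and 47.4 CPM). Pik3ca was at 43.4 and 40.7 CPM, under the limit of 50, and these counts do not tell the H1047R transcript from the normal one. Of 4 FOXO genes and targets, 1 was higher and 1 lower, with Cited2 at 24.4 and 121 CPM and Txnip at 144 and 61.0 CPM. Of 5 Notch genes, 2 were lower and 1 higher: Jag1 and the glycosyltransferase Mfng (119 and 67.7 CPM) were lower and the target Hes1 (78.7 and 151 CPM) was higher. Of 16 BMP and TGF-β genes, 2 were higher, Id2 (122 and 366 CPM) and the inhibitor Smad7 (62.4 and 143 CPM), and the ligand Tgfb2 was lower (61.0 and 39.3 CPM), shares near those of all genes. Of 9 flow-related genes, 2 were lower and 1, S1pr1, was higher. Cav1 and Heg1 were at 621 and 243 CPM in control and 325 and 96.2 CPM in mutant cells, while Klf2 was at 262 and 269 CPM. G2/M genes had a median log2 ratio of 0.35 (2 of 9 higher) and S-phase genes -0.07 (0 of 9 beyond 1.5-fold).

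For the genes whose mutant-over-control ratio differed most between 3-marker and other endothelial cells, 1 control cell gave a sizeable share of the control UMIs in 1 group. Myog and Actc1 were recomputed without the muscle-rich control cell, and the part of single cells in the other ratios was not tested. The 5 genes with a higher mutant-over-control ratio in 3-marker than in other endothelial cells were Ctnna2, Tenm3, Nnat, Robo2 and Nkain2, genes of neurons and axon guidance, and 1 control cell outside the 3-marker cells gave between 33.4 and 74.7% of their UMIs in that group. The 5 with a lower ratio were Myog, Actc1, Cxcl12, Acta2 and Dkk2, and 1 control 3-marker cell gave 100, 92.0, 49.1, 64.4 and 45.9% of their UMIs. For Slc2a1 the log2 ratio was larger by 0.99 (0.60 to 1.38) in the 3-marker cells, whose control level was 84.1 CPM against 165 CPM in the other control cells. In the selected cells that ratio was 2.10 with 2 markers needed and 3.83 with 4. For Vcan the log2 ratio was larger by 2.75 (1.99 to 3.51) in the 3-marker cells, with intervals for counting error that hold no spread between embryos. The rule put all 8 Gata4-containing control endothelial cells among the others, and 79 of 106 mutant ones among the 3-marker cells. In mutant 3-marker cells, Vcan was at 565 CPM with Gata4 and 54.7 CPM without. The Vcan difference was not recomputed without Gata4 cells in all groups, so their part in it was not tested.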

How the data were processed

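eYFP+ cells sorted from E13.5 embryos were sequenced by 5′ single-cell RNA-seq in 1 library per genotype. The deposited values are raw UMI counts per gene and cell, which the authors made with Cell Ranger 7.1.0 on mm10, per the submitters' processing notes in the labels; the annotation release and the counting of intronic reads are not given in the sources used here. A cell was kept if its gene number lay between 2000 and 9000 (both left out) and its mitochondrial UMIs were under 10%. Endothelial cells had a UMI of at least 4 of Pecam1, Cdh5, Tie1, Emcn, Egfl7, Plvap, Esam and Ptprb and none of Ptprc. Doublets were kept. UMIs were summed over 3-marker and other endothelial cells of each library and scaled to CPM. Genes with a mean of at least 50 CPM over the 2 sums compared were counted as measured, and 1.5-fold was the limit for a count as higher or lower. A gene could thus be measured by its level on 1 side alone, so counts of higher or lower genes are descriptions. A gene at 0 on 1 side was set at 3 counts there. No tests or p-values are given between single libraries. Ratios and intervals were tested on simulated sums drawn with counting error alone. That simulation held no spread between cells or embryos, so it does not show how the intervals hold for genes carried by few cells. The members, lists and limits were chosen with earlier results of these data known. Genes named are the rule's genes, list members, the 12 highest and 12 lowest of each main comparison ranked on both libraries or by the interval end nearest 0, and the 5 each way whose ratio differed most between 3-marker and other cells, leaving out genes at 0 on a side, Xist, Y-linked and mitochondrial genes. A neuron-type cell had 4 or more of 8 neuronal genes and at most 1 endothelial marker. The promoters are from RefSeq. Python 3.11.15, scipy 1.17.1 and scanpy 1.11.5 were used.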

Additional observations from a re-analysis of the deposited data

Results flagged for a closer look

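In 14 of the listed or named genes the mutant-over-control log2 ratio had opposite signs in 3-marker and in other endothelial cells, with both counting intervals clear of 0. With 1 library per genotype these differences were not tested. For Actc1 the ratio was -2.37 in 3-marker and 1.15 in other endothelial cells, and without the muscle-rich control cell it was 1.15 in the 3-marker cells. For Myog, whose control UMIs in 3-marker cells all came from that cell, it was -6.21 and 0.44. For Acta2 it was -1.22 and 0.99, for Col3a1 1.57 and -0.995 and for Fbln2 0.47 and -0.51, and 1 control 3-marker cell gave 64.4, 64.1 and 46.2% of the UMIs there. For Ctnna2 (2.63 and -3.63), Nnat (3.26 and -0.65) and Tenm3 (2.59 and -2.22), 1 control cell among the other endothelial cells gave 69.1, 74.7 and 55.4% of the UMIs. Itga9, an integrin of lymphatic valves, had 1.70 and -0.23 with 24 control UMIs in the 3-marker cells. The rest were smaller: 0.59 and -0.26 for Birc5, 0.57 and -0.32 for Mmrn2, 0.26 and -0.50 for Nrp2, -0.34 and 0.27 for Hspa4 and -0.27 and 0.38 for Hspd1.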

How the results depend on the processing

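The shares, the list medians and the genes named for each comparison were recomputed under up to 19 alternatives (the splits by marker and the lists of other cell types were not), 4 of them added after the data were seen (Gata4 at 0, any Prox1, without the muscle-rich control cell, male-like mutant cells). The HIF median ran from 1.41 to 2.51 in 3-marker and 1.83 to 2.35 in other endothelial cells, and the glycolysis median from 1.21 to 1.92 (1.92 with the rule on thinned cells) and 1.28 to 1.71 (1.71 with median-ratio scaling). The control share was 4.58% with 4 markers, 40.5% with 2, 3.62% on thinned cells and 30.7% regardless of Prox1; the mutant share was 21.0, 57.4, 22.9 and 60.2%, and 45.5% in female-like cells. The cushion median changed sign to -0.81 with the rule on thinned cells (5 control cells), -0.29 without cells holding genes of another type, -0.13 with Gata4 at 0 and -0.61 regardless of Prox1. The median of endocardial genes outside the rule rested on few genes. In the control library it was 2.86 with 4 markers, 4.46 with the rule on thinned cells, 1.25 without high Scrublet scores, 1.24 in female-like cells, 1.13 against Prox1-0 cells, 1.00 as a mean over cells, 0.58 over 11 genes with 1 UMI on each side, 1.25 without the muscle-rich cell and 0.58 regardless of Prox1. In the mutant library it was 0.29 with 4 markers, 0.19 with 2, 0.68 with the rule on thinned cells, 0.28 without cells holding genes of another type, 1.04 against Prox1-0 cells, 0.62 on thinned counts, 0.16 with Gata4 at 0 and 0.65 regardless of Prox1. Of the 24 genes named for mutant over control, 4 changed sign: Actc1 to 2.69 with 4 markers, 1.20 with the rule on thinned cells, 1.19 without high Scrublet scores and 1.15 without the muscle-rich cell, Cxcl12 to 0.0862 with 4 markers, and Col15a1 and Nckap5 to 1.56 and 0.17 with the rule on thinned cells. The 12 highest genes stayed above 0, with lowest values between 0.95 and 2.87. The arterial median for mutant over control was 0.77 with 4 markers and -1.56 with the rule on thinned cells, and negative under the other alternatives. For 3-marker over other cells the arterial median turned in the control library to -1.25 with 4 markers and -0.18 regardless of Prox1, and ran from -0.04 to 0.37 in the mutant library. Of the genes named for 3-marker over other cells, these log2 ratios changed sign where the main ratio was beyond 1.5-fold. With 4 markers, they were in the control library Fbln5 -3.06, Sox6 -2.25, Eln -2.22, Ltbp4 -0.72, Gja4 -3.52, Stmn2 -2.97, Slc35f1 -1.56, Jag1 -1.10, Smad6 -1.26, Cthrc1 -0.052, Mt1 1.51. With the rule on thinned cells, they were in the control library Fbln5 -1.82, Sox6 -0.18, Eln -3.75, Gja4 -0.998, Car8 -0.16, Bmp4 -0.93, Cthrc1 -1.20, Dlk1 1.35, Mt1 2.79, Trf 0.27 and in the mutant library Stmn2 -0.38, Ank2 0.30. With a mitochondrial limit of 5%, they were in the control library Eln -0.54, Slc35f1 -0.31. Without cells holding genes of another type, they were in the control library Ctnna2 0.40, Dlk1 2.31. Against Prox1-0 cells, they were in the mutant library Nkain2 0.48. On thinned counts, they were in the control library Mt1 0.19. Regardless of Prox1, they were in the control library Eln -0.067, Gja4 -0.12, Stmn2 -0.11, Slc35f1 -0.013, Ctnna2 2.11, Dlk1 0.83, Nkain2 1.25, Ank2 0.58, Selenop 0.48. Smaller main ratios also turned, among them Ebf3 in the control library, from -0.55 to 0.26 with 2 markers. Regardless of Prox1, Prkce turned from -0.52 to 0.36 in the control library and Nnat from -0.55 to 0.052 in the mutant library. The other lists moved in 26 recomputations and not in 262. The Notch median went from -0.34 to 1.15 with 4 markers, the basement membrane median from -0.14 to 0.45 there, and with the rule on thinned cells the immediate early median from 0.17 to -0.99 and the G2/M median from 0.35 to 1.92. The cause of the shifts was not tested, beyond the few control cells that 4 markers or thinning give. Of the 5 control cells selected after thinning, 1 held a Gata4 UMI, so they were not all among the 27 selected at full depth. No paired analysis was possible because each genotype has 1 library.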

Other observations

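Cells with Prox1, which the rule left out, often carried the endocardial markers. In all, 20 of the 40 control and 149 of the 216 mutant endothelial cells with a Prox1 UMI had 3 or more of the 6, which is 50% (95% interval 33.8 to 66.2%) and 69.0% (95% interval 62.4 to 75.1%). In these, lymphatic genes summed to 1510.3 CPM in control and 573 CPM in mutant cells, and cushion matrix genes to 2507 and 1056 CPM. In cells with Prox1 and fewer than 3 markers, lymphatic genes summed to 1439 and 598 CPM and cushion matrix genes to 739.5 and 525 CPM. The median depths of the 4 groups ran from 15515 to 29778 UMIs, and deeper cells had more markers. Of genes of the hepatic sinusoid, Stab2 was at 40.7 CPM in control and 13.51 CPM in mutant 3-marker cells and Oit3 at 1.36 and 8.26 CPM.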
